A study of Mus musculus with 24 samples.

Results

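The NR4A orphan nuclear receptors are the genes Nr4a1 (Nur77), Nr4a2 (Nurr1) and Nr4a3 (Nor1). They were chosen by symbol from the 4 expression tables of the study, 3 genes of 14769 listed in any table, and all 3 members were listed in all 4 tables, so none was lost to a filter on low values. The tables came from the cortex of male mice, 3 to 4 months old, with 1 h of filament occlusion of the middle cerebral artery and 1 day of reperfusion, a transient model of ischemic stroke. Every animal, WT included, carries the strain label C57BL/6N-Cdr1asem1Nikr, and the genotype is WT or a knockout (KO) of ciRS-7, a circular RNA also named Cdr1as. The tissue of each animal is marked CL or PI, marks that the labels do not spell out. This gave 4 groups of 6 libraries: CL WT and PI WT from one set of animals, CL KO and PI KO from another. All 4 groups had the occlusion, and no untouched animals are among them.

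NR4A proteins bind DNA as monomers or dimers, on their own or with retinoid X receptors, and their ligand pocket is filled with side chains, so their activity follows mainly from how much protein is made. They are immediate early genes: calcium and cAMP, acting through CREB and its coactivators and through MEF2 and SRF, switch them on within a short time and their transcripts are short-lived. In the forebrain they follow neuronal firing. Nr4a2 is in addition a stable marker of deep-layer and claustral neurons and is required by midbrain dopamine neurons.

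The sequences just before the starts of transcription are shown because CREB, the best known switch of the family, binds the cAMP response element (CRE), of which TGACG is the half-site. Capitals mark every half-site, read on either strand (TGACG or CGTCA), 5′ to 3′ on the strand of the gene, from RefSeq on GRCm38.p6. All 3 members matched an entry. Nr4a1 is shown at chr15:101266596-101266845 (plus strand), Nr4a2 at chr2:57124004-57124253 (minus strand) and Nr4a3 at chr4:48045055-48045152 (plus strand), where it stops at the first exon of GENCODE M21.
Nr4a1: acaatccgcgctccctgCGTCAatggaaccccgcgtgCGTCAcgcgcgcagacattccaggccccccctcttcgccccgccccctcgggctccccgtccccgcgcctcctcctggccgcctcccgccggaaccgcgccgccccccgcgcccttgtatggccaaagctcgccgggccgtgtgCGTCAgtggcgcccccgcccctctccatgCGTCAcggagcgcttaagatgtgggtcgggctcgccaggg
Nr4a2: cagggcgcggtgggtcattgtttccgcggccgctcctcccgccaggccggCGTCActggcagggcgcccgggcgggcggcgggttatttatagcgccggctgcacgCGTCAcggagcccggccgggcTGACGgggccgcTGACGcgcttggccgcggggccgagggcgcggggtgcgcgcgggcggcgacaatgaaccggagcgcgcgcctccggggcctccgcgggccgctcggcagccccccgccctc
Nr4a3: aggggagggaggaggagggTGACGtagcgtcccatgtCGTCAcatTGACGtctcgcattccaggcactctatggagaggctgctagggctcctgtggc

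Each member had 4 CRE half-sites in the 250 bases before its RefSeq start. Of all 32851 RefSeq promoter windows of that length, 17.8% held at least 1 half-site and 0.137% held 4 or more. The half-site contains a CpG and the member windows are rich in it, with 34 CpG in Nr4a1, 44 in Nr4a2 and 18 in Nr4a3, against a median of 6 over all windows. Among the 7120 windows with at least 18 CpG, 0.548% held 4 or more half-sites. In Nr4a1 every half-site was part of TGCGTCA, which 1.75% of windows held at least once and which Nr4a2 and Nr4a3 lacked. The full palindrome TGACGTCA, present in 1.55% of windows, was in none of the members, and neither was AAAGGTCA, the element that NR4A monomers bind (1.34% of windows). TGANTCA, bound by FOS and JUN dimers (6.75% of windows), and GCGTGGGCG, bound by EGR factors (0.536%), were also in none of them, all motifs being searched on both strands. TATAAA stood before Nr4a2 alone, read on the opposite strand (12.4% of windows). The motifs were picked as known partners of the family after the sequences had been seen, and a match is a description of letters and not of a bound site.

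**Figure D1:**
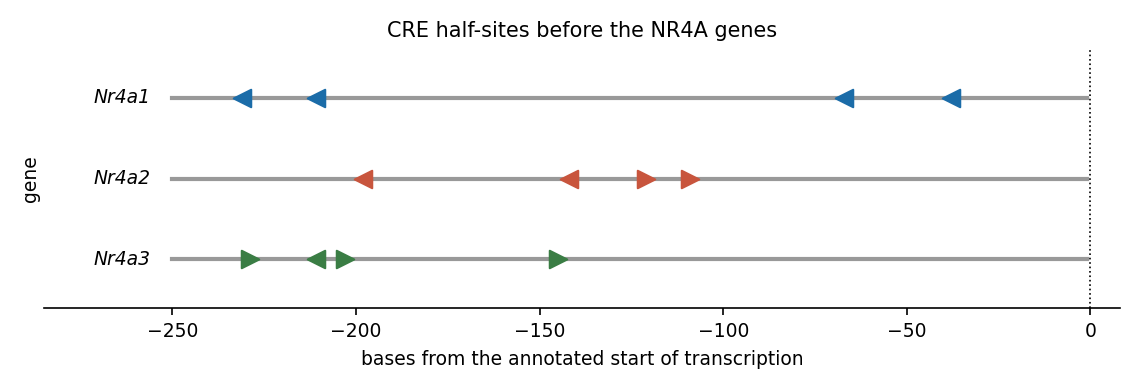
Positions of the CRE half-sites in the 250 bases before the RefSeq start of each gene, on the strand of the gene. The x axis is the distance in bases from the start, and arrowheads point right for TGACG and left for CGTCA. All 4 half-sites of Nr4a1 point left, the outermost beginning at -233 and the innermost at -40, and each gene has 4. The half-site of Nr4a3 that begins at -147 lies past the start of the GENCODE M21 gene and is not in the printed sequence.

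In the annotation Nr4a1 (ENSMUSG00000023034.7) lies on chromosome 15 from 101254269 to 101274795 on the plus strand, with 4 transcripts. Nr4a2 (ENSMUSG00000026826.13) lies on chromosome 2 from 57106830 to 57124003 on the minus strand, with 6 transcripts. Nr4a3 (ENSMUSG00000028341.9) lies on chromosome 4 from 48045153 to 48086447 on the plus strand, with 4 transcripts. These are GRCm38 positions from GENCODE M21, and the submitters' processing notes name mm10, the same assembly. No other annotated gene overlapped any of the 3 (0 each).

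Values are log2 CPM, the share of a library's reads that fell on a gene, on a log scale, and each table was scaled on its own, so levels are compared within a table only. Within each group of 6, every gene (100%) had its lowest pair of libraries at one value and its highest pair at another, both lying at the group's quartiles, so extremes were pulled inward before deposit. The 2 middle values are as measured, the second lowest and second highest can be solved for, and the extremes cannot. Levels after ± are the SE of a trimmed mean of the 4 recoverable values (n = 6 libraries), and differences were tested by a moderated trimmed-mean test with limma's empirical Bayes step, adjusted over all genes of the table and called at an adjusted p under 0.05. Effective depth, read from the step between low values, was 3.76 to 10.5 Mreads a library. It spanned 5.84 to 8.42 Mreads for CL WT libraries and 6.13 to 9.89 for PI WT, and among KO animals 3.76 to 10.5 for CL and 5.27 to 7.11 for PI. CL KO 6 stood apart as the shallowest library and lay in an outer pair in 89.4% and 89.5% of genes in its 2 tables, so results that use CL KO are also given without it. The targeted RNA followed the labels: in the tables that set KO beside WT, Cdr1as was deposited at 2610 to 3801 CPM in the WT libraries and at no more than 0.166 CPM in the KO libraries. All 8 excitatory cortical markers were listed, and their levels are given with the other cell-type markers further on.

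The reads behind the members were counted where values were untouched. Of 48 untouched member values, 46 were whole numbers of reads within 0.1 read. In the 2 untouched libraries of each group, Nr4a1 rested on 140 to 198 reads in CL WT and 91 in PI WT, on 262 to 315 in CL KO and on 101 to 102 in PI KO. For Nr4a3 the CL libraries gave 133 to 210 reads (WT) and 217 to 261 (KO), and the PI libraries 82 to 153 (WT) and 105 to 120 (KO). Nr4a2 was the lowest, with 100 to 103 reads in CL WT, 104 to 138 in CL KO, and only 32 to 47 in PI WT and 34 to 44 in PI KO. The SE of the trimmed mean exceeded the error from counting alone in 11 of 12 combinations of gene and group, all but Nr4a2 in PI WT. The excess differed between them. The SE was 0.27 against 0.075 for Nr4a1 in PI KO and 0.43 against 0.12 for Nr4a2 in PI KO. For Nr4a1 in PI WT it was only 0.09 against 0.074. Per kilobase of exon, Nr4a1 was highest in all 6 libraries of every group. Nr4a2 was lowest in all 6 libraries of PI WT, CL KO and PI KO, while in CL WT it was lowest in 3 libraries and Nr4a3 in the other 3.

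The first question was how PI differed from CL within WT animals. All 3 members stood lower in PI WT, and the decrease passed the test for Nr4a1 and Nr4a2. Of all genes tested, 10.6% were called, 5.2% higher and 5.4% lower in PI.

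Nr4a2, the member with roles in dopamine and deep-layer neurons, moved most. In CL WT its lowest pair stood at 3.65 log2 CPM, the middle libraries at 3.80 and 3.89, and its highest pair at 3.96. In PI WT the lowest pair stood at 2.15, the middle libraries at 2.18 and 2.35, and the highest pair at 2.36. The 6 deposited PI values lay close together, far below every deposited CL value. The recoverable values did not overlap either (13.1% of genes were separated in this way and lower). The trimmed mean went from 3.82 ± 0.11 to 2.26 ± 0.07 log2 CPM, a fall by 1.56 (SE 0.14, 95% interval -1.86 to -1.26, adjusted p = 3.35e-05), or 2.94-fold lower. By size it was the 19th lowest difference of 14489 genes, and 5th among called genes. The SE in PI WT, 0.07, was smaller than the 0.12 reckoned from counting alone for 4 independent values. The trimmed mean takes the inner 4 of 6 and the extremes cannot be recovered, so how close all 6 libraries lay is not known.

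Nr4a1, the member most tied to rapid induction, had its lowest pair in CL WT at 4.33 log2 CPM, its middle libraries at 4.37 and 4.59 and its highest pair at 4.79. In PI WT the lowest pair stood at 3.56, the middle libraries at 3.68 and 3.72 and the highest pair at 3.80. Again no PI library reached the CL range, in deposited or recoverable values. The level fell by 0.85 (SE 0.15, 95% interval -1.17 to -0.52, adjusted p = 0.00313), from 4.53 ± 0.16 to 3.69 ± 0.09 log2 CPM, or 1.80-fold lower. Nr4a1 was called in WT with each of the 12 libraries left out in turn (adjusted p = 0.00256 to 0.0188), and so was Nr4a2 (adjusted p = 4.28e-05 to 0.000458).

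Nr4a3 had its lowest pair in CL WT at 4.20 log2 CPM, its middle libraries at 4.21 and 4.67 and its highest pair at 4.73. In PI WT the lowest pair stood at 3.57, the middle libraries at 3.73 and 4.05 and the highest pair at 4.06. The groups did not overlap in deposited or recoverable values (13.1% of genes were so separated and lower). The recoverable values were 4.20, 4.21, 4.67 and 4.74 in CL WT and 3.52, 3.73, 4.05 and 4.06 in PI WT. The extremes are not known. The difference was -0.62 (SE 0.19, 95% interval -1.02 to -0.21) and missed the threshold (adjusted p = 0.0555). It passed when groups were centred by their median gene (-0.65, adjusted p = 0.0422). On the deposited values limma gave adjusted p = 0.00120, and with the animal as a block adjusted p = 0.000317, but those values understate the spread.

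**Figure D2:**
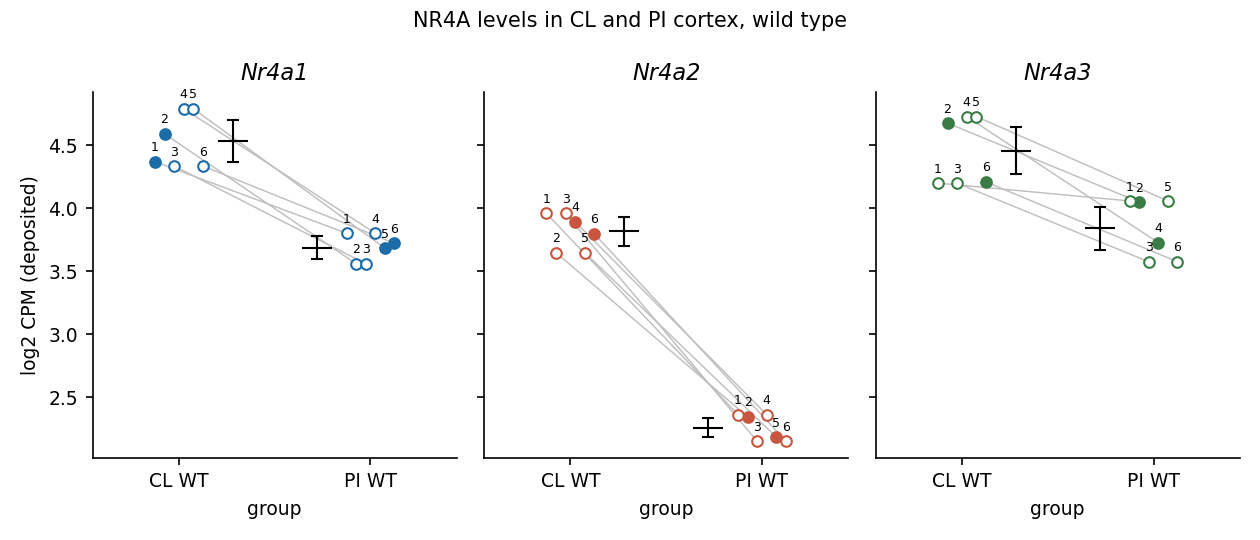
Deposited log2 CPM (y axis) of the 3 genes in the 6 CL WT and 6 PI WT libraries (x axis), numbered by animal and joined by grey lines. Filled points are untouched values, open points the tied pairs, and black bars the trimmed mean with its SE. Nr4a2 drops from 3.82 to 2.26 with no overlap, and every line runs downward.

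Each animal gave both a CL library and a PI library under one number, so the difference can also be read animal by animal. In WT, deposited PI was lower than CL in 6 of 6 animals for each gene, which any pairing would give, since deposited values did not overlap. For Nr4a2 the differences lay between -1.81 and -1.30 log2 (median -1.56). For Nr4a1 they lay between -1.11 and -0.57 (median -0.88). Nr4a3 ranged from -0.9998 in animal WT4 to -0.14 in animal WT1, with a median of -0.63. Animal WT1 thus had the smallest difference for both Nr4a1 and Nr4a3, while for Nr4a2 it was in the middle of the range. These differences come from deposited values, whose extremes were drawn in. Where an animal's value was an extreme, its measured difference, and thus its sign, is not known.

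In KO animals the same comparison gave a decrease that passed for all 3 members, beside 10% of all genes called, 5.11% higher and 4.94% lower. Nr4a1 in CL KO had its lowest pair at 4.80 log2 CPM, its middle libraries at 4.93 and 5.14 and its highest pair at 5.34. In PI KO the lowest pair stood at 3.54, the middle libraries at 3.94 and 4.01 and the highest pair at 4.24. The groups were apart in deposited and recoverable values (13.4% of genes were so separated and lower). Nr4a1 fell by 1.14 (SE 0.24, 95% interval -1.65 to -0.63, adjusted p = 0.00979), from 5.06 ± 0.19 to 3.92 ± 0.27 log2 CPM, or 2.20-fold lower.

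For Nr4a2 in CL KO the lowest pair stood at 3.73 log2 CPM, the middle libraries at 3.74 and 3.81 and the highest pair at 4.08. In PI KO the lowest pair stood at 2.04, the middle libraries at 2.37 and 2.85 and the highest pair at 3.23. The PI KO libraries were strewn over a wide range, though none reached CL KO in deposited or recoverable values. Whether the highest of them did as measured is not known, since extremes cannot be recovered. Nr4a2 fell by 1.24 (SE 0.32, 95% interval -1.94 to -0.53, adjusted p = 0.0312), from 3.86 ± 0.14 to 2.63 ± 0.43 log2 CPM. The 4 recoverable PI KO values spanned 1.43 log2, or 2.70-fold, where those of PI WT spanned 0.23. Animals KO4 and KO5 had the highest PI values and the smallest differences (-0.58 and -0.51), and KO6 the largest, -2.05.

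Nr4a3 in CL KO had its lowest pair at 4.66 log2 CPM, its middle libraries at 4.86 and 5.14 and its highest pair at 5.14. In PI KO the lowest pair stood at 3.85, the middle libraries at 4.05 and 4.19 and the highest pair at 4.50. Deposited values did not overlap, but the recoverable ones did, since the second highest of PI KO was at 4.60, as was the second lowest of CL KO. Nr4a3 fell by 0.78 (SE 0.22, 95% interval -1.25 to -0.31, adjusted p = 0.0387), from 4.93 ± 0.17 to 4.16 ± 0.24 log2 CPM. All 6 KO animals had lower deposited PI than CL values for each of the 3 genes, which any pairing would give, since these did not overlap. The medians were -0.91 for Nr4a1, -1.30 for Nr4a2 and -0.74 for Nr4a3. Libraries PI KO 1 and PI KO 6 formed the lowest pair of their group for all 3 members.

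**Figure D3:**
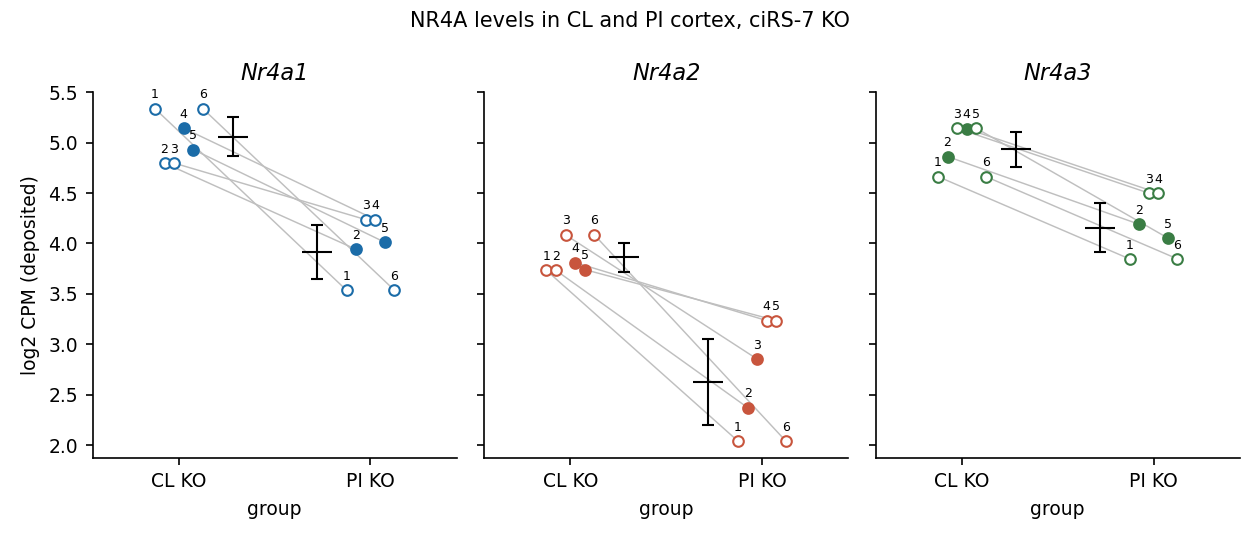
Deposited log2 CPM (y axis) of the 3 genes in the 6 CL KO and 6 PI KO libraries (x axis), numbered by animal and joined by grey lines, with filled points for untouched values, open points for tied pairs and black bars for the trimmed mean and SE. PI KO libraries 1 and 6 are lowest for each gene, and Nr4a2 spreads from 2.04 to 3.23 in PI KO.

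The KO decreases rested on the libraries to a different degree. Without CL KO 6 the differences were -1.03 for Nr4a1 (adjusted p = 0.0131), -1.13 for Nr4a2 (adjusted p = 0.0335) and -0.89 for Nr4a3 (adjusted p = 0.0138). Nr4a1 was called with each of the 12 libraries left out in turn. The call of Nr4a2 was lost without PI KO 1, 2, 3 or 6 (over all 12, adjusted p = 0.00906 to 0.137). That of Nr4a3 was lost without PI KO 1, 2, 5 or 6, or CL KO 2, 3, 4 or 5 (adjusted p = 0.00726 to 0.124). With no trend in the prior variance none of the 3 passed (adjusted p = 0.0607 for Nr4a1, 0.106 for Nr4a2 and 0.122 for Nr4a3).

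Whether PI and CL differed by more in one genotype was tested as an interaction over the 14211 genes in both tables. No gene passed (0%, and 646 genes or 4.55% at an unadjusted p under 0.05 by the same trimmed-mean test with limma, against 1940 called by limma on the deposited values). The KO difference minus the WT difference was -0.29 for Nr4a1 (95% interval -0.94 to 0.35), 0.32 for Nr4a2 (-0.49 to 1.13) and -0.16 for Nr4a3 (-0.83 to 0.50), each with adjusted p = 0.992. These intervals leave room for sizeable shifts, so the genotypes are not shown to be alike.

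The next question was what loss of ciRS-7 did to the family within CL. No member passed over all genes, of which 0.0279% were called and 5.73% had an unadjusted p under 0.05. Nr4a1 in CL KO ran from 4.77 log2 CPM in the lowest pair, with 4.91 and 5.12 in the middle, to 5.31 in the highest pair. CL WT in that table ran from 4.30, with 4.33 and 4.56 in the middle, to 4.75. Recoverable values of Nr4a1 overlapped, because the second highest of CL WT was 4.82 and the second lowest of CL KO 4.72. The deposited ones lay apart only because values had been drawn in. The difference was 0.53 (SE 0.18, 95% interval 0.13 to 0.93), or 1.44-fold, with adjusted p = 0.781 and unadjusted p = 0.0135 by the trimmed-mean test with limma. Of all genes, 3.16% were higher at an unadjusted p under 0.05.

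Nr4a3 in CL KO ran from 4.63 log2 CPM, with 4.84 and 5.11 in the middle, to 5.11. CL WT ran from 4.16, with 4.18 and 4.64 in the middle, to 4.69, so the ranges overlapped at their edges. The difference was 0.49 (SE 0.19, 95% interval 0.08 to 0.89, adjusted p = 0.824, unadjusted p = 0.0217 by the trimmed-mean test with limma). Nr4a2 showed a difference near 0, at 0.05 (SE 0.15, 95% interval -0.27 to 0.38, adjusted p = 0.987). Its lowest pair stood at 3.71 in CL KO and 3.62 in CL WT, and its highest pair at 4.06 and 3.92. Whether Nr4a2 differed from the other members in this respect was not tested.

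Without CL KO 6, Nr4a1 stood 0.41 higher in CL KO (adjusted p = 0.701), Nr4a3 0.60 higher (adjusted p = 0.422) and Nr4a2 at -0.05 (adjusted p = 0.972). That library was among the highest pair for Nr4a1 and Nr4a2 and the lowest for Nr4a3. Within PI, where 0.0208% of genes were called and 5.75% had an unadjusted p under 0.05, KO minus WT was 0.24 for Nr4a1 (SE 0.21, 95% interval -0.23 to 0.70, adjusted p = 0.910), 0.38 for Nr4a2 (SE 0.33, -0.34 to 1.09, adjusted p = 0.909) and 0.32 for Nr4a3 (SE 0.22, -0.16 to 0.81, adjusted p = 0.882). The PI KO values of Nr4a1 ran from 3.57 to 4.27 log2 CPM and those of PI WT from 3.59 to 3.82, so the KO range took in the WT range. The same held for Nr4a2, with 2.07 to 3.27 in PI KO and 2.18 to 2.38 in PI WT.

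**Figure D4:**
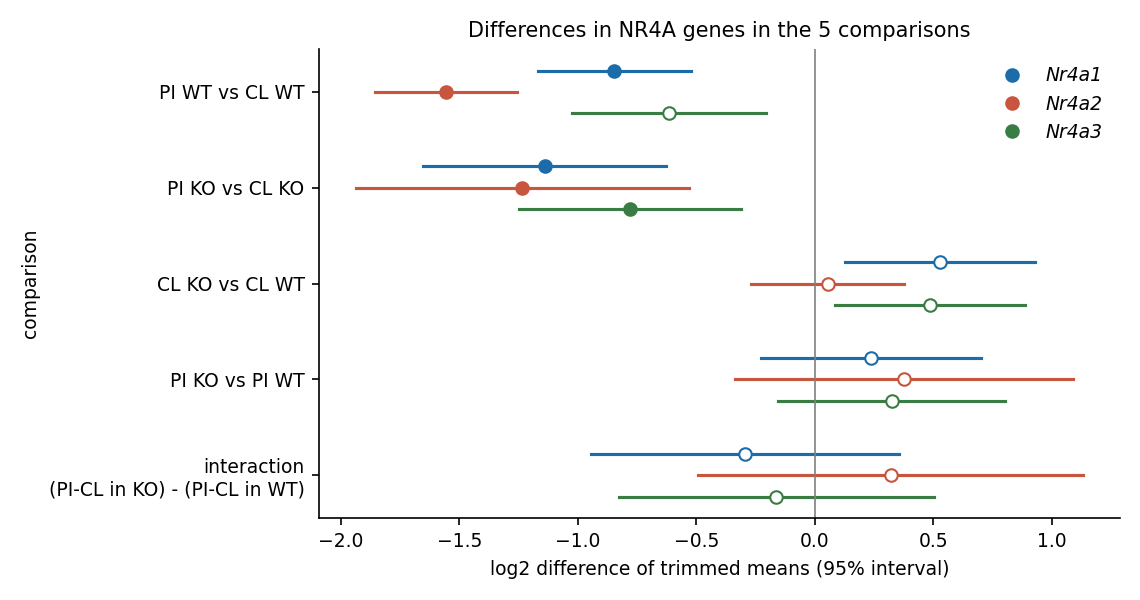
Log2 differences of trimmed means (x axis) with 95% intervals for the 3 genes in the 5 comparisons (y axis). Filled points passed an adjusted p of 0.05 and open points did not. Only PI against CL has filled points, from -1.56 for Nr4a2 in WT to -0.78 for Nr4a3 in KO, and all genotype and interaction points are open.

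The make-up of the family can be compared between genes only per kilobase. The summed level of the 3 genes had a median of 13.5 CPM per kb in CL WT and 7.41 in PI WT, and of 18.5 in CL KO and 9.19 in PI KO. The share of Nr4a1 was 45.5% to 51.2% in CL WT (median 47.6%) and 45.6% to 54.9% in PI WT (median 50.8%). In KO it was 44.01% to 60.5% in CL (median 50.6%) and 46.8% to 50.3% in PI (median 49.2%), and PI and CL overlapped in both genotypes. The share of Nr4a2 was 20.1% to 30.3% in CL WT (median 25.4%) and 14.8% to 17.0% in PI WT (median 16.5%), which do not overlap. In KO it was 17.2% to 23.2% in CL (median 19.4%) and 14.7% to 23.9% in PI (median 15.7%), which overlap. The share of Nr4a3 had medians of 26.4% and 32.8% in CL WT and PI WT and of 30.3% and 34.8% in CL KO and PI KO. Exon length is that of the union of annotated exons, 3.509 kb for Nr4a1, 4.059 kb for Nr4a2 and 5.987 kb for Nr4a3, and shares were not tested.

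**Figure D5:**
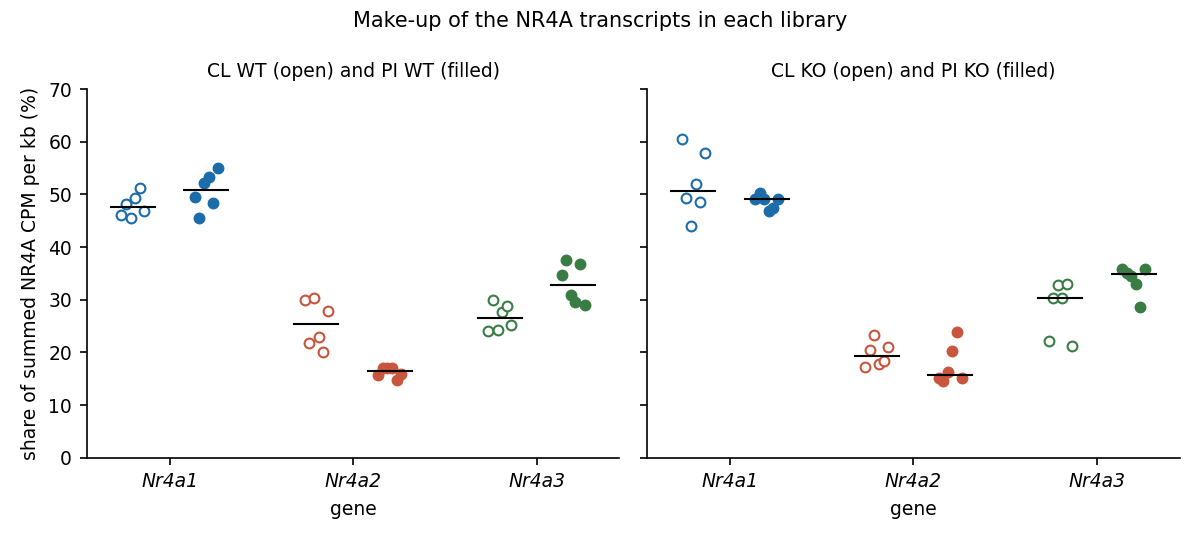
Share of each gene in the summed CPM per kb of the 3 genes (y axis, %), one point a library, with open points for CL, filled points for PI and bars for medians. The Nr4a2 points of PI WT, 14.8% to 17.0%, lie below all those of CL WT.

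In the machinery that switches NR4A genes on, 10 of 28 listed genes were called in WT, 1 higher and 9 lower in PI (median of the list -0.08 log2, of all genes 0.01). In KO 7 were called, 1 higher and 6 lower (median -0.13, of all genes -0.00068). The shares of all genes called were 10.6% in WT and 10% in KO. Camk4, the calcium-dependent kinase that phosphorylates CREB, fell by 0.91 in WT (SE 0.07, adjusted p = 6.75e-06) and by 0.78 in KO (SE 0.06, adjusted p = 1.99e-05). Its activator Camkk2 fell by 0.67 (SE 0.08, adjusted p = 0.000168) and by 0.78 (SE 0.06, adjusted p = 1.99e-05). Rps6ka5, which encodes the CREB and histone kinase MSK1, fell by 0.45 in WT (adjusted p = 0.0322) and 0.47 in KO (adjusted p = 0.0267). The calcineurin subunits Ppp3ca, Ppp3cb and Ppp3r1 fell in both genotypes as well, by 0.21 to 0.36. The CREB gene itself, Creb1, stood at -0.09 in WT and -0.07 in KO and was not called (adjusted p = 0.336 and 0.510). Elk1, a partner of SRF, was higher in WT by 0.30 (adjusted p = 0.0457), with 0.13 in KO (adjusted p = 0.520). Crem, which also yields repressors of CRE-driven genes, was higher in KO by 0.40 (adjusted p = 0.0254), with 0.22 in WT (adjusted p = 0.0891). The list also holds Hdac5, a repressor of MEF2, which fell by 0.41 in WT (adjusted p = 0.00355). No gene of this list was called for the interaction with genotype. Without CL KO 6, 9 of 28 were called in KO, 8 of them lower, beside 1584 of all 14338 genes called, 828 of them lower.

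Among partners and coregulators, 3 of 15 were called in WT, all lower (0 higher), and 1 in KO, also lower. Beside these stand 10.6% of all genes called in WT and 10% in KO. Bcl2, the survival protein that Nr4a1 binds at mitochondria, fell by 0.43 in WT (SE 0.08, adjusted p = 0.00405), with -0.43 in KO but a larger error (SE 0.17, adjusted p = 0.136). The glucocorticoid receptor Nr3c1 fell by 0.24 (adjusted p = 0.0470) and the coactivator Ncoa1 by 0.22 (adjusted p = 0.0148) in WT. The corepressor Ncor1 fell by 0.22 in KO (adjusted p = 0.0101). For the interaction with genotype no partner or coregulator was called. The retinoid X receptor Rxra stood at -0.10 in WT and -0.11 in KO and was not called (adjusted p = 0.619 and 0.608). Of 12 other genes with nuclear receptor symbols of the Nr type, grouped after their values had been seen, 2 were called in WT and 3 in KO, all lower, and their differences in WT ran from -0.37 to 0.14. The NR4A members lay outside that range. The set leaves out nuclear receptors with other symbols, among them Rxra and Rorb, and Rorb (given below) also lay outside that range in WT.

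Genes described as NR4A-dependent in some tissue went both ways. In WT 6 of 12 listed were called, 3 higher and 3 lower, and in KO 3, of which 2 were higher and 1 lower. Spp1 (osteopontin) was higher by 1.65 in WT (SE 0.18, adjusted p = 0.000160) and by 1.46 in KO (SE 0.31, adjusted p = 0.0109). Ret, the receptor subunit for GDNF, was higher by 1.46 (SE 0.30, adjusted p = 0.00759) and by 1.51 (SE 0.27, adjusted p = 0.00442), and the glycolytic enzyme gene Hk2 by 0.95 in WT (adjusted p = 0.00543) with 0.82 in KO (adjusted p = 0.0584). Aldh1a1, which makes retinoic acid, fell by 0.80 in WT (adjusted p = 0.00232) and 0.61 in KO (adjusted p = 0.0149). Ddc, the enzyme that makes dopamine from its precursor, fell by 1.11 in WT (SE 0.21, adjusted p = 0.00437), with -0.23 in KO (SE 0.21, adjusted p = 0.550). Th, Slc6a3, Slc18a2 and Pomc, the classical targets in dopamine neurons and pituitary, were not among the listed genes.

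Of 26 listed activity-induced genes, 12 were called in WT, 5 higher and 7 lower in PI (median -0.22), and 7 in KO, 3 higher and 4 lower (median -0.31). Over all genes the shares called were 10.6% in WT and 10% in KO. Members of the EGR family of zinc finger factors were among the decreases. Egr1 fell by 1.08 in WT (SE 0.14, adjusted p = 0.000480), with -1.19 in KO (SE 0.36, adjusted p = 0.0560). Egr4 fell by 0.93 in WT (adjusted p = 0.00659), with -1.21 in KO (adjusted p = 0.0623). Egr2 fell by 1.995 in KO (SE 0.37, adjusted p = 0.00504), with -1.03 in WT (adjusted p = 0.0700). Arc, a synaptic plasticity gene, fell by 0.69 in WT (adjusted p = 0.0134), with -0.50 in KO (adjusted p = 0.315). Other induced genes were higher, among them the stress gene Gadd45b, by 1.24 in WT (adjusted p = 0.000367) and 0.99 in KO (adjusted p = 0.00106), the neuronal pentraxin Nptx2, by 1.19 (adjusted p = 6.80e-05) and 1.04 (adjusted p = 0.0106), and Jun, by 0.43 (adjusted p = 0.00437) and 0.42 (adjusted p = 0.00907). The NR4A decreases were therefore accompanied by decreases in part of this list and increases in another part.

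Between CL KO and CL WT, none of the 26 was called (0 by the trimmed-mean test), and 24 differences were positive (median 0.33, of all genes -0.00204). By that test with limma 16 had an unadjusted p under 0.05, all 16 higher. Of all genes, 3.16% were higher at that level. Fos stood 0.77 higher (SE 0.19, adjusted p = 0.490), Egr1 0.51 (SE 0.09, adjusted p = 0.197) and Egr2 1.06 (SE 0.28, adjusted p = 0.596). Nr4a1 and Nr4a3, at 0.53 and 0.49, lay above the median of this list, and Nr4a2, at 0.05, below it. Without CL KO 6, 15 of 26 had an unadjusted p under 0.05 by that test, all 15 higher (median 0.31), and 552 of all 14323 genes were higher so. Within PI the list median was 0.16, with 0 called and 6 higher at an unadjusted p under 0.05, as were 2.8% of all genes, by the trimmed-mean test with limma. Markers of other cells stood as follows in CL: all 7 microglia markers were positive (0 called), with summed levels of 166 to 181 CPM in CL KO and 155 to 168 in CL WT, all 6 oligodendrocyte markers were negative (0 called), and the neuron list had a median of -0.02. Their part in the NR4A differences was not tested.

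Cell-type markers moved with the PI and CL marks too, beside 10.6% of all genes called in WT and 10% in KO. All 8 neuron markers were lower in PI in both genotypes (0 positive, medians -0.26 in WT and -0.24 in KO), of which 3 were called in each: Snap25, Syt1 and Nefl, the last by -0.41 in WT. The summed level of the neuron list was 6911 to 7570 CPM in PI WT against 8135 to 8654 in CL WT, and 6724 to 7356 in PI KO against 7913 to 8368 in CL KO. Nefl, at -0.41, moved most of the neuron list in WT, and each NR4A difference there was larger in size. Rorb of the excitatory list, at -0.78, moved more than Nr4a3 (-0.62) and less than Nr4a1 (-0.85). Fewer neurons and less NR4A RNA per neuron cannot be told apart in bulk tissue, and the part of cell make-up in these decreases was not tested. The 8 excitatory cortical markers had a summed level of 940 to 1009 CPM in PI WT and 1053 to 1164 in CL WT, and of 882 to 984 in PI KO and 1090 to 1133 in CL KO, without overlap in either genotype. Of these markers 1 was called in each, Rorb in WT (-0.78, adjusted p = 0.00186) and Tbr1 in KO (-0.26, adjusted p = 0.0272). Of 11 listed layer 6b and claustrum markers, the cells where Nr4a2 is itself a marker, 2 were called in WT, Ccn2 higher by 0.39 (adjusted p = 0.0237) and Gnb4 lower by -0.55 (adjusted p = 0.0386), and 0 in KO (medians -0.11 and -0.07). In both genotypes 7 of the 11 were negative. Their summed level was 269 to 302 CPM in PI WT and 305 to 337 in CL WT, which do not overlap, and 277 to 310 in PI KO and 287 to 319 in CL KO, which do.

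NR4A genes are also induced in activated myeloid cells. Of 7 microglia markers, 4 were called in each genotype, 3 higher and 1 lower, and their summed level was 172 to 195 CPM in PI WT and 159 to 172 in CL WT. In KO it was 188 to 229 CPM in PI and 169 to 184 in CL. Of 10 neutrophil and monocyte markers, Cd14 alone was listed in the PI and CL tables, at 6.33 to 10.2 CPM in PI WT and 0.526 to 1.14 in CL WT. S100a8, S100a9, Ly6g, Mpo, Elane, Ly6c2, Ccr2, Itgal and Plac8 were not listed there. The summed microglia level and the level of Cd14, a single gene, were both higher in PI. Among 7 astrocyte markers 4 were called in WT, 2 higher and 2 lower, and 3 in KO, 2 higher and 1 lower (medians -0.11 and -0.04). Gfap was higher by 1.88 in WT and 2.19 in KO, and Gja1 lower by -0.35 and -0.43. The summed level of the astrocyte list was lower in PI without overlap, at 6499 to 6931 CPM in PI WT against 7329 to 7727 in CL WT, and at 6416 to 7021 in PI KO against 7338 to 7830 in CL KO. Such sums add drawn-in values and weigh genes by their abundance, while 3 of the 7 markers were positive and 4 negative in each genotype. Of 6 oligodendrocyte markers 1 was called in WT, Cnp, lower, and 0 in KO, and the summed level was 1429 to 2039 CPM in PI WT and 2080 to 2272 in CL WT, and 1590 to 1806 in PI KO and 1663 to 2254 in CL KO. Of 7 endothelial markers 0 were called in WT and 1 in KO, Slco1a4, lower. Among 6 interneuron markers 1 was called in each genotype, Vip lower in WT and Gad2 higher in KO. These counts stand beside 10.6% of all genes called in WT and 10% in KO. The part of these cell types in the NR4A decreases was not tested.

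The genes whose levels ran most alike with each member were ranked by the lowest Pearson correlation over the 4 tables of 12 libraries, among 13984 genes, as a description only, since every library is in 2 tables and values were drawn in. Closest to Nr4a1 were Adrb1 (lowest r 0.82), the adrenergic receptor gene, Prickle1 (0.80), Arc (0.80), Galnt9 (0.79) and Fmnl1 (0.78). Closest to Nr4a3 were Pcsk1 (0.90), a prohormone convertase, Fos (0.83), Vxn (0.82), Homer1 (0.82) and Galnt9 (0.79). For Nr4a2 no gene came as close: Trim9 (0.67), Whrn (0.67), Rims1 (0.65), Gm28800 (0.59) and Tob2 (0.58). Among the members themselves, Nr4a1 and Nr4a3 had a lowest r of 0.63. Nr4a2 had a lowest r of 0.03 with Nr4a1 and of -0.10 with Nr4a3, both among the CL libraries of the 2 genotypes, while over the WT libraries these were 0.91 and 0.77. The same correlations were 0.92 and 0.87 over the KO libraries, and 0.87 and 0.69 over the PI libraries of the 2 genotypes. Whether Nr4a2 differed from the other members among CL libraries was not tested.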

How the data were processed

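Ribosome-depleted total RNA of mouse cortex was sequenced in 24 libraries (4 groups of 6), per the labels' protocols with the CORALL kit after RiboCop depletion. The deposited values are log2 CPM in 4 tables, per the file headers, and the submitters' processing notes name mm10. The aligner, the counting and its use of strand are not given in the sources used here. Columns were matched to samples by title (0 unused columns). The Winsorizing was found from ties and is not recorded in the labels. From the deposited log2 values the 4 recoverable values per gene and group were solved, and trimmed means were tested with limma 3.58.1 (R 4.3.3) with Benjamini-Hochberg adjustment, two-sided, in 4 tables and as an interaction. The method was tried on simulated libraries of equal depth and equal dispersion, a simpler setting than these libraries, which differ in depth.

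CL and PI libraries with the same number come from the same animal, per the labels. Their deviations from the group means correlated by -0.005 to 0.18 in WT and -0.045 to 0.17 in KO. The block was an alternative and not in the main design. Between genotypes a number only names an animal.

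Alternatives were limma on the deposited values, without and with the number as a block, no prior trend, median-gene centring, a pseudocount of 1 CPM, a filter at mean log2 CPM of 0, group medians and, added after seeing the data, each library left out. The members, lists and tests were chosen with earlier results of these data known. Named besides the members are the 5 genes most like each, up to 3 called genes per list, comparison and direction with the largest change, and list genes whose calls differ between comparisons; Creb1, Rxra, the Ppp3 genes, and Fos, Egr1 and Egr2 between genotypes were named after values were seen. The depth of 3.76 to 10.5 Mreads puts a limit of 3 reads at 0.285 to 0.797 CPM, far under every member value; it covers counting error only. Separate animals are the replicates.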

Additional observations from a re-analysis of the deposited data

How the results depend on the processing

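Over the alternatives planned, 95 of 105 member values kept their side of the threshold (group medians, which have no test, moved by less than the spread), and 18 of 30 counts of called genes stayed within 1.5 times. Of the 105, 1 changed sign: the uncalled Nr4a2 difference in CL, 0.05, was -0.061 between group medians. On the deposited values limma called 6459 (WT) and 6666 (KO) genes for PI against CL, 2311 in CL and 2388 in PI between genotypes and 1940 for the interaction, since the drawn-in values understate the spread. With no prior trend, 1015 (WT) and 739 (KO) were called, and in KO the members no longer passed: -1.14 for Nr4a1, -1.24 for Nr4a2 and -0.78 for Nr4a3. Nr4a3 in WT passed with limma on the deposited values (-0.62) and with median-gene centring (-0.65), and between CL KO and CL WT limma on the deposited values called Nr4a1 (0.53, adjusted p = 0.00795) and Nr4a3 (0.49, adjusted p = 0.0187); the cause of the change with centring or prior was not tested.

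With the replicate block on the deposited values, 6614 genes were called in WT, 6759 in KO, 1868 in CL, 1800 in PI and 2216 for the interaction. Nr4a3 in WT passed with the block (-0.62, adjusted p = 0.000317), and in CL, where numbers do not pair animals, so did Nr4a1 (0.53, adjusted p = 0.0184) and Nr4a3 (0.49, adjusted p = 0.00721). Against limma on the same values without the block, no member's call changed.

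Leaving out each library gave 1172 to 1567 genes (WT), 920 to 1675 (KO), 4 to 8 (CL), 2 to 5 (PI) and 0 for the interaction. The lowest KO count was without PI KO 2, the highest in CL without CL KO 1, and the PI count moved most without PI KO 1 or 6. For Nr4a1, Nr4a2 and Nr4a3 in turn, values ran from -0.92 to -0.74, -1.63 to -1.50 and -0.70 to -0.51 in WT, from -1.27 to -0.97, -1.48 to -1.002 and -0.93 to -0.65 in KO, from 0.41 to 0.63, -0.049 to 0.11 and 0.40 to 0.60 in CL, from 0.11 to 0.41, 0.13 to 0.61 and 0.18 to 0.45 in PI, and from -0.43 to -0.12, 0.08 to 0.55 and -0.31 to -0.04 for the interaction. That Nr4a2 difference also changed sign without CL KO 3 or 6 (-0.049) and without CL WT 2 or 5 (-0.018). Each such fit has fewer samples. Depth limits Nr4a2 in PI most, at 32 to 47 reads in the untouched libraries of PI WT and PI KO.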
